A study of Rattus norvegicus with 8 samples.

Results

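The genes described here are 3 rows of the deposited count and FPKM tables that belong to the response to endoplasmic reticulum stress: Hspa5 (ENSRNOG00000018294), Atf4 (ENSRNOG00000017801) and Ddit3 (ENSRNOG00000006789). They were taken by Ensembl gene ID, 3 of the 21549 IDs listed, and all 3 had enough counts to be tested. The tables hold no gene names, so the symbols come from the definition of the gene set and were not checked against an annotation. RNA was sequenced from the hearts of 4 Sprague Dawley rats kept in chronic hypoxia, a lasting exposure to reduced oxygen, and of 4 Sprague Dawley rats kept in normoxia. All 8 animals were 3 months old and of the same outbred strain, and each gave 1 library. The degree and duration of hypoxia, the sex of the rats and the part of the heart were not found in the labels. The heart label was not checked against cardiac marker genes, for want of names.

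The endoplasmic reticulum folds proteins bound for membranes and for secretion. When unfolded protein builds up there, the sensors PERK, IRE1 and ATF6 start the unfolded protein response. Hspa5 encodes BiP, also called GRP78, the main Hsp70-type chaperone of this compartment, which holds the sensors inactive until unfolded protein draws it away. Atf4 encodes a transcription factor whose protein is made mostly when PERK or a related kinase phosphorylates eIF2 alpha. That control acts on translation through upstream open reading frames, so RNA counts do not measure it. Ddit3 encodes CHOP, a transcription factor induced downstream of ATF4 that favours cell death when stress persists. In the heart these genes have been studied mainly in ischaemia and in pressure overload.

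The promoters are printed because the genes are known for distinct control elements. The sequences are the 250 bases before the RefSeq start of each gene in assembly GRCr8, matched by symbol for 3 of 3 genes. The deposited values were made on another build, rn6. Capitals mark every match, on either strand, to CCAAT and to CCACG where it completes an endoplasmic reticulum stress response element (ERSE), and to the hypoxia response element cores ACGTG and GCGTG. The Hspa5 window lies at chr3:38452766-38453015, the Atf4 window at chr7:113684431-113684680 and the Ddit3 window at chr7:65001445-65001694, all on the plus strand.
Hspa5: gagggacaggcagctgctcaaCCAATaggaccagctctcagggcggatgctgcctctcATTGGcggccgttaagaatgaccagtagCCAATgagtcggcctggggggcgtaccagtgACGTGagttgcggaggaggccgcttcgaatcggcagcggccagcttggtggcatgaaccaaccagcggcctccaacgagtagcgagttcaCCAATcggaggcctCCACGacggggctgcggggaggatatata
Atf4: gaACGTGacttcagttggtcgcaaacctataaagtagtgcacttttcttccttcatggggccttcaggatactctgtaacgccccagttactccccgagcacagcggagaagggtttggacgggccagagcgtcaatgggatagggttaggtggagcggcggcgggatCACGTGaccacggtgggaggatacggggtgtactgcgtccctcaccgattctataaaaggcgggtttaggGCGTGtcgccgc
Ddit3: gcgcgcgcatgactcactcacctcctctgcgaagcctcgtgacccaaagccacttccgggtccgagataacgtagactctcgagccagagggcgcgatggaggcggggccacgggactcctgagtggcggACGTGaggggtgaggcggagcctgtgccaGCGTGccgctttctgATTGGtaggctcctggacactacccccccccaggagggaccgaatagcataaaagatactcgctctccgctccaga

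The Hspa5 window held a complete ERSE, CCAAT followed after 9 bases by CCACG, from base −43 to base −25 of the start. This element is the one known to bind ATF6 and XBP1 together with NF-Y, and 22 of 33469 RefSeq promoter windows of the same length held it on either strand (0.0657%). Hspa5 had 4 CCAAT matches in all, 1 of them on the opposite strand, where 34.0% of all windows had at least 1. Ddit3 had 1 CCAAT match, on the opposite strand, and Atf4 had 0. Read on that strand, the Ddit3 match is followed after 9 bases by GCACG, 1 letter from CCACG. The search took exact letters only, so near matches such as this were not counted in any window. The share of windows with such a near match was not computed, nor were others sought upstream of Hspa5. Each of the 3 windows had 1 CCACG match, found in 27.2% of all windows, and outside Hspa5 it stood in no ERSE.

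Hypoxia response element cores stood upstream of all 3 genes, and the share of windows with either core was not computed. The windows were richer in G and C than most, at 61.6% for Hspa5, 57.2% for Atf4 and 63.6% for Ddit3. The median over all windows was 51.2%. The core ACGTG, found in 16.6% of windows, occurred once upstream of Hspa5 and of Ddit3. It occurred 3 times upstream of Atf4, of which 2 matches on opposite strands overlapped within the letters CACGTG, a sequence that is also an E-box. The core GCGTG, found in 25.9% of windows, occurred once upstream of Atf4 and of Ddit3 and had 0 matches upstream of Hspa5. ERSE-II (ATTGG followed after 1 base by CCACG), TGACGTGG and the ATF4-C/EBP core TGATGNAA had 0 matches in the 3 windows, and 0.0418%, 0.520% and 3.40% of all windows held them. A match describes letters only, and elements outside these windows were not searched.

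**Figure D1:**
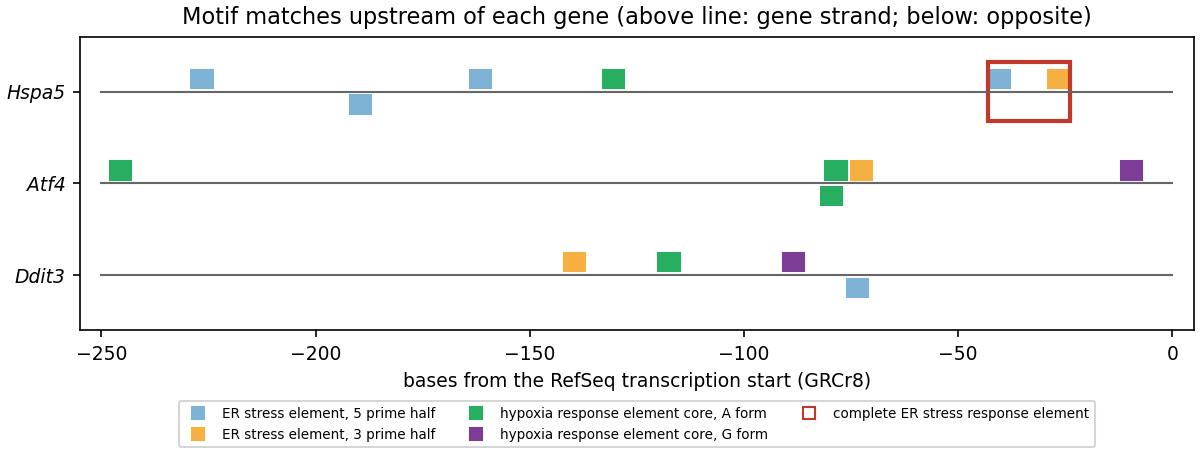
Positions of the motif matches in the 250 bases upstream of each RefSeq start (x axis, bases from the start), with matches on the gene's strand above each line and those on the opposite strand below it. The boxed pair upstream of Hspa5, from base −43 to base −25, is the complete ERSE, and neither Atf4 nor Ddit3 has an exact match to it.

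Hspa5, Atf4 and Ddit3 were all higher in the hypoxic hearts, by 1.80-fold for Ddit3, 1.50-fold for Hspa5 and 1.38-fold for Atf4 (edgeR, quasi-likelihood, adjusted p under 0.05 by Benjamini-Hochberg over 14214 genes). In each of the 3 genes, every hypoxic heart lay above every normoxic heart, in CPM (counts relative to the library size, scaled by the trimmed mean of M values, TMM) and in FPKM (fragments per kilobase and library size, as deposited). Such changes were common in these libraries. Of all tested genes, 33.0% were called, 17.7% were called higher in hypoxia, and 17.3% had every hypoxic heart above every normoxic one in CPM. In FPKM, which keeps library totals, 9.87% of the 11809 genes with a mean of at least 1 FPKM did. In tissue RNA, a change in the share of cells that express a gene and a change in RNA per cell cannot be told apart.

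Hspa5 stood at 433, 328, 449 and 355 CPM in hypoxic hearts 1 to 4, against 251, 243, 272 and 278 CPM in normoxic hearts 1 to 4. Hypoxic hearts 1 and 3 were high and hearts 2 and 4 lower, and the groups did not overlap. The means were 391 ± 59.0 CPM in hypoxia and 261 ± 16.7 CPM in normoxia (SD, n = 4 each). On the log2 scale hypoxia was 0.58 higher, with an SE of 0.11 (edgeR adjusted p = 0.00468) and a 95% interval of 1.25-fold to 1.79-fold. These values rested on 9461 to 12357 counts per hypoxic library and 7412 to 8512 per normoxic library. Counting error was about 0.960% and 1.11%, against coefficients of variation between hearts of 15.1% in hypoxia and 6.41% in normoxia.

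Atf4 stood at 166, 144, 122 and 144 CPM in hypoxic hearts 1 to 4, against 105, 99.5, 106 and 106 CPM in normoxic hearts 1 to 4. Hypoxic heart 1 was the highest and heart 3 the lowest of the hypoxic group, still 1.15-fold above the highest normoxic heart. The means were 144 ± 18.0 CPM in hypoxia and 104 ± 2.97 CPM in normoxia (SD, n = 4 each). On the log2 scale hypoxia was 0.47 higher, with an SE of 0.10 (edgeR adjusted p = 0.00577) and a 95% interval of 1.19-fold to 1.61-fold. The normoxic hearts were almost alike for this gene, with a coefficient of variation of 2.86% against a counting error of 1.75%. In the hypoxic hearts it was 12.5% against a counting error of 1.58%, on 3179 to 4733 counts in hypoxia and 3036 to 3509 in normoxia.

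Ddit3 stood at 35.4, 30.8, 28.1 and 46.9 CPM in hypoxic hearts 1 to 4, against 21.1, 19.7, 18.7 and 18.9 CPM in normoxic hearts 1 to 4. Hypoxic heart 4 was well above the rest of its group at 2.39 times the normoxic mean, and heart 3, the lowest, was at 1.43 times that mean. The means were 35.3 ± 8.29 CPM in hypoxia and 19.6 ± 1.07 CPM in normoxia (SD, n = 4 each). On the log2 scale hypoxia was 0.85 higher, with an SE of 0.15 (edgeR adjusted p = 0.00262) and a 95% interval of 1.43-fold to 2.25-fold. Without hypoxic heart 4 it was 0.67 (edgeR adjusted p = 0.00209). Counts were 734 to 1307 per hypoxic library and 575 to 708 per normoxic library, for a counting error of 3.19% and 4.03%. The coefficient of variation between hearts was 23.5% in hypoxia and 5.46% in normoxia. In the RefSeq annotation the gene overlaps LOC134479709 and Mars1, which encodes methionyl-tRNA synthetase. The strand setting of the counting is not given, so reads of these overlaps cannot be told apart, while Hspa5 and Atf4 overlapped 0 RefSeq genes.

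**Figure D2:**
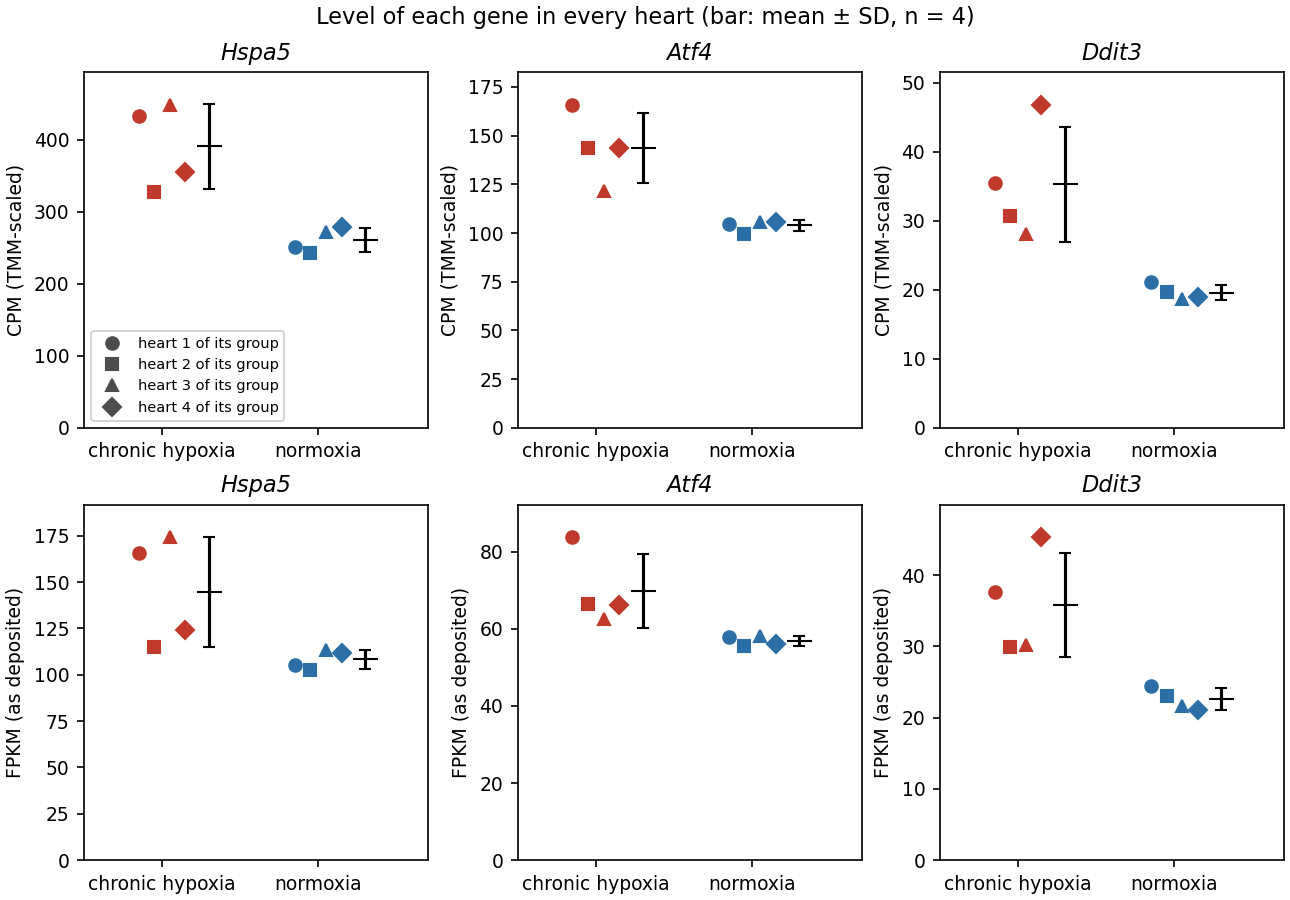
Level of Hspa5, Atf4 and Ddit3 in every heart, in TMM-scaled CPM (upper row) and deposited FPKM (lower row), with chronic hypoxia in red and normoxia in blue, 1 symbol per heart and mean ± SD (n = 4) beside each group. All 4 hypoxic values lie above all 4 normoxic values in each panel, and on the FPKM scale the lowest hypoxic value of Hspa5, 115, is just above the highest normoxic value, 114.

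Per gene length, Hspa5 was the most abundant of the 3 transcripts, Atf4 the next and Ddit3 the least, in all 8 hearts. Hspa5 averaged 145 ± 29.7 FPKM in hypoxia and 108 ± 5.20 FPKM in normoxia, Atf4 averaged 69.8 ± 9.58 FPKM in hypoxia and 56.9 ± 1.31 FPKM in normoxia, and Ddit3 averaged 35.8 ± 7.32 FPKM in hypoxia and 22.6 ± 1.53 FPKM in normoxia (SD, n = 4 each). The ranges of neighbouring genes did not meet within either group: in hypoxia they were 115 to 174 FPKM for Hspa5, 62.5 to 83.9 for Atf4 and 29.9 to 45.4 for Ddit3. In normoxia they were 103 to 114, 55.5 to 58.2 and 21.1 to 24.5 FPKM. Ranked by FPKM among the 21549 listed genes, where 1 is the most abundant, Ddit3 was at ranks 1064 to 1681 in hypoxic hearts and 2211 to 2510 in normoxic hearts. Atf4 was at ranks 646 to 784 in hypoxic hearts and 859 to 883 in normoxic hearts. For Hspa5 the ranks met, at 306 to 441 in hypoxic hearts and 433 to 478 in normoxic hearts.

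Against the whole set of tested genes, the changes were moderate. A larger log2 fold change than that of Ddit3 was found in 6.52% of the 14214 genes, than that of Hspa5 in 13.2% and than that of Atf4 in 17.5%. Over all tested genes the median log2 change was 0.01, and the median gene called higher in hypoxia rose 1.56-fold. Among those called higher, 29.7% exceeded Ddit3, 55.7% exceeded Hspa5 and 70.4% exceeded Atf4.

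**Figure D3:**
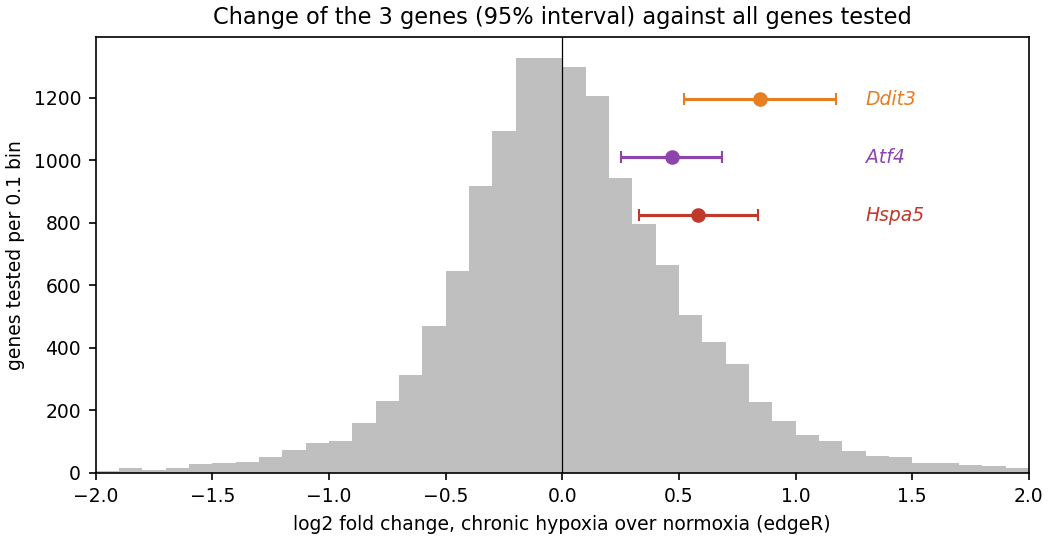
Number of tested genes (y axis) by log2 fold change of chronic hypoxia over normoxia in bins of 0.1 (x axis, grey bars), with the estimate and 95% interval of each of the 3 genes drawn above them at arbitrary heights. The 3 intervals lie right of 0, with Ddit3 at 0.85, Hspa5 at 0.58 and Atf4 at 0.47; 177 genes beyond a log2 fold change of 2 in either direction are not drawn.

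Scaling and gene length moved the size of the changes but not their direction or call in edgeR. TMM factors were 0.895 to 0.995 in the hypoxic libraries and 1.03 to 1.08 in the normoxic ones. With library totals alone, which shifted all log2 fold changes by a median of −0.17, the values were 0.42 for Hspa5 (adjusted p = 0.0352), 0.29 for Atf4 (adjusted p = 0.0432) and 0.66 for Ddit3 (adjusted p = 0.00461), all past the threshold in edgeR. That scaling called 37.3% of genes in either direction, and its calls were 1426 higher and 3872 lower, where TMM gave 2516 higher and 2177 lower. Set against the median of all genes under each scaling, Hspa5 was 0.59 above it with library totals and 0.57 with TMM, Atf4 was 0.46 above it with either, and Ddit3 was 0.83 above it with library totals and 0.84 with TMM. On the log2(FPKM + 1) scale, which also keeps library totals, limma called 10.1% of 11809 genes higher in hypoxia, with 0.39 for Hspa5, 0.28 for Atf4 and 0.62 for Ddit3 (adjusted p = 0.0457, 0.0450 and 0.00619). Without the filter of a mean of 1 FPKM, limma called 5.20% of 21301 genes higher, and Hspa5 at 0.39 (adjusted p = 0.0795) and Atf4 at 0.28 (adjusted p = 0.0596) missed the threshold.

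The 3 genes differ in the length of their gene models, 2562 bp for Hspa5, 1940 bp for Atf4 and 925 bp for Ddit3, and calls of higher expression were more frequent in the length bins (10 bins of equal size) of the shorter ones. In the bin that holds Ddit3, of 890 to 1328 bp, 448 of 1421 genes were called higher (31.5%) against 89 called lower, and the bin had a median log2 change of 0.22. In the bin of Atf4, of 1644 to 1972 bp, 322 of 1422 were called higher (22.6%) against 117 called lower, and the median was 0.09. In the bin of Hspa5, of 2337 to 2748 bp, 185 of 1421 were called higher (13.0%) against 220 called lower, and the median was −0.01. Once the trend with length was taken out of every library, the log2 fold changes were 0.60 for Hspa5, 0.39 for Atf4 and 0.61 for Ddit3 (edgeR adjusted p = 0.00445, 0.0110 and 0.0107), where 14.9% of genes were called higher. Ddit3 and Hspa5 were then closer together than the SE of either, at 0.14 and 0.11. RNA integrity of the samples was not used here, and its part in these values was not tested.

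**Figure D4:**
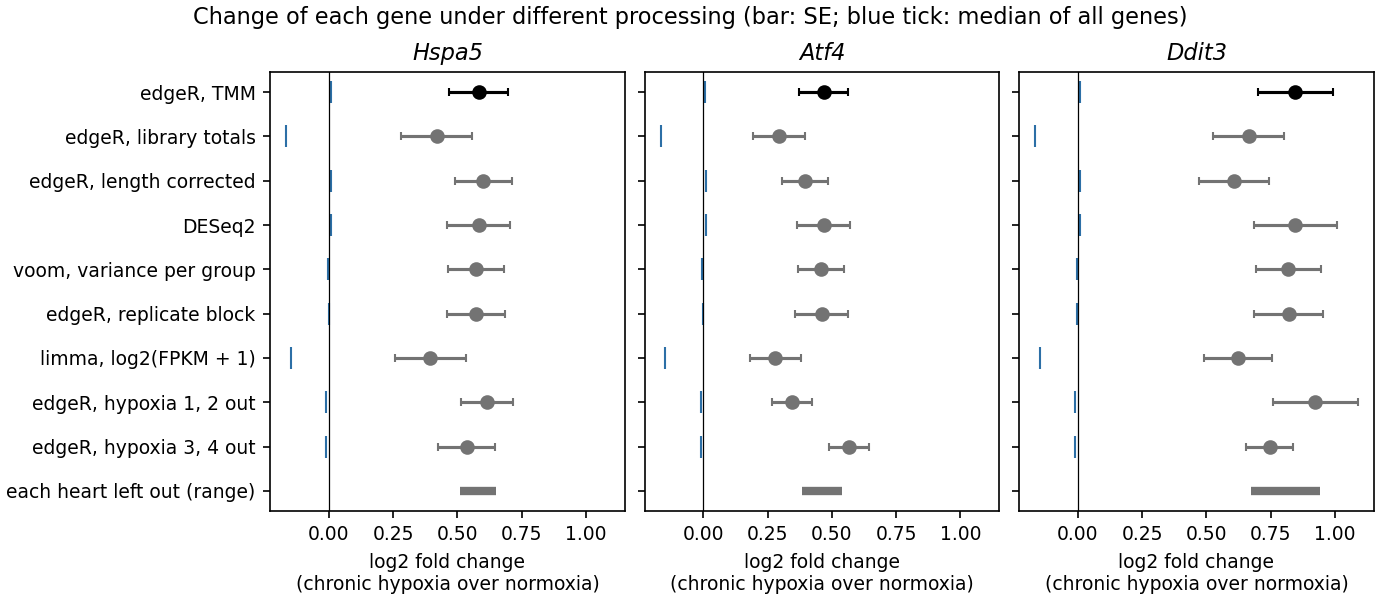
Log2 fold change of chronic hypoxia over normoxia (x axis) for each gene under 9 ways of processing (rows; points with SE) and the range over fits with 1 heart left out (bottom row), with the median of all genes in each fit as a blue tick. Every estimate lies above 0 and above its tick, and Ddit3 comes down from 0.85 to 0.61 once the length trend is removed.

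Ratios of 2 genes within a heart do not depend on a scaling factor per library, though they do depend on a trend with gene length, and they were used to ask whether the genes changed by unequal amounts. The ratio of Ddit3 to Atf4 counts was 0.214, 0.214, 0.231 and 0.326 in hypoxic hearts 1 to 4, against 0.202, 0.198, 0.177 and 0.179 in normoxic hearts 1 to 4. The groups did not overlap, and the log2 ratio was 0.36 higher in hypoxia (exact two-sided permutation p = 0.0286, the smallest that 4 against 4 allows). Adjusted over the 3 ratios, p was 0.0857, which did not pass. With this adjustment, a ratio at the smallest p cannot pass unless another ratio reaches it too, so that outcome decides nothing. The 3 ratios are also not independent, as any 2 of them fix the other. Hypoxic heart 4 was the highest, and without it the difference was 0.22. With the length trend taken out of every library, the difference was 0.20 (SD 0.32 in hypoxia and 0.11 in normoxia, n = 4 each, exact permutation p = 0.314, adjusted 0.471) and the groups overlapped.

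The other ratios overlapped between the groups. The ratio of Hspa5 to Atf4 counts was 2.61, 2.28, 3.69 and 2.47 in hypoxic hearts 1 to 4, against 2.40, 2.44, 2.58 and 2.63 in normoxic hearts 1 to 4. Its log2 difference of 0.11 was under the spread between hypoxic hearts (SD 0.30, n = 4, exact permutation p = 0.686, adjusted 0.686) and was −0.03 without hypoxic heart 3. The ratio of Hspa5 to Ddit3 counts was 12.2, 10.7, 16.0 and 7.58 in hypoxic hearts 1 to 4, against 11.9, 12.3, 14.5 and 14.7 in normoxic hearts 1 to 4. Its log2 difference of −0.25 was under the spread between hypoxic hearts (SD 0.45, n = 4, exact permutation p = 0.343, adjusted 0.514) and was −0.06 without hypoxic heart 4. With the length trend taken out, the difference was 0.20 for Hspa5 to Atf4 (exact permutation p = 0.114, adjusted 0.343) and 0.0065 for Hspa5 to Ddit3 (exact permutation p = 1.0, adjusted 1.0), and both overlapped between the groups. These p-values do not show that the genes changed alike.

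**Figure D5:**
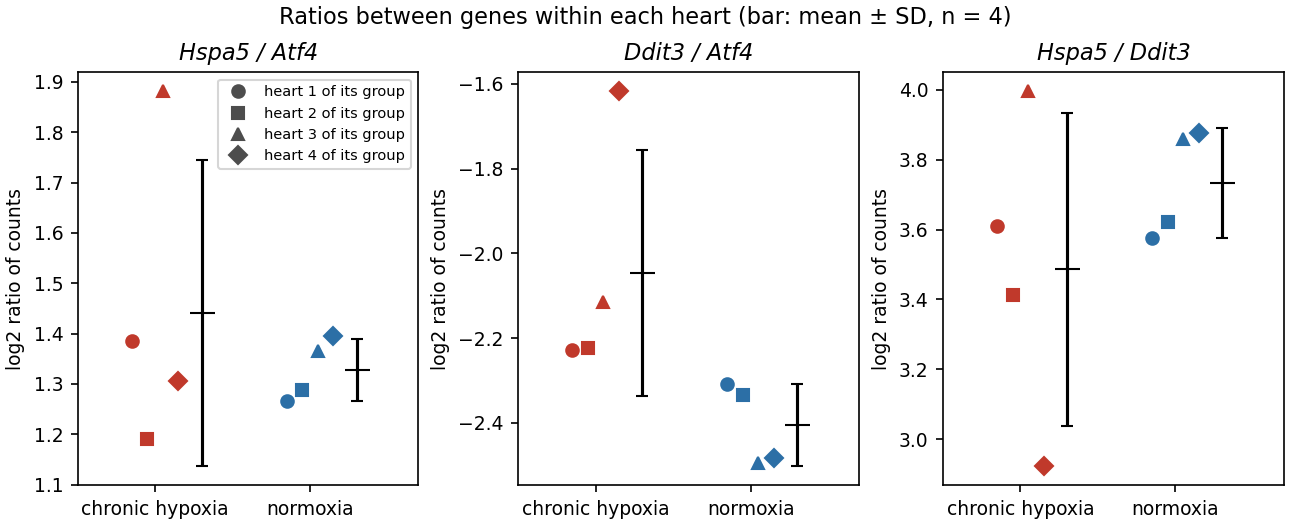
Log2 ratio of counts of 2 genes within each heart (y axis), with chronic hypoxia in red and normoxia in blue, 1 symbol per heart and mean ± SD (n = 4) beside each group. The SD is larger in hypoxia than in normoxia for each ratio. On the linear scale, hypoxic heart 3 is highest for Hspa5 over Atf4 at 3.69. For Ddit3 over Atf4, hypoxic hearts 1 to 3 lie close together at 0.214 to 0.231, and heart 4 is at 0.326.

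The order of the hypoxic hearts differed from gene to gene. In CPM, Hspa5 was highest in heart 3, at 1.72 times the normoxic mean. Atf4 at 1.17 times and Ddit3 at 1.43 times had their lowest hypoxic values in that heart. Atf4 was highest in heart 1, at 1.60 times, and Ddit3 in heart 4, at 2.39 times. Heart 2 was below heart 1 for all 3 genes. It was at 1.25 times the normoxic mean for Hspa5, 1.38 times for Atf4 and 1.57 times for Ddit3. The order depends in part on the scaling. In FPKM the lowest hypoxic value of Ddit3 was in heart 2, at 29.9, with heart 3 at 30.3. TMM factors were 0.981 and 0.995 in hypoxic hearts 1 and 3, and 0.898 and 0.895 in hearts 2 and 4. The SD of log2 CPM in hypoxia over that in normoxia was 2.37 for Hspa5, 4.36 for Atf4 and 4.15 for Ddit3, against a median of 1.76 over all tested genes. A larger ratio was found in 34.0% of genes for Hspa5, 11.2% for Atf4 and 12.4% for Ddit3.

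Leaving out hypoxic hearts 1 and 2, or 3 and 4, gave different sizes for the 3 genes. These pairs were taken by replicate number, the labels do not link their hearts, and other pairs were not run. With hearts 3 and 4 alone, the log2 fold change was 0.61 for Hspa5, 0.34 for Atf4 and 0.92 for Ddit3, and with hearts 1 and 2 alone it was 0.54 for Hspa5, 0.57 for Atf4 and 0.75 for Ddit3. All 6 values passed the threshold in edgeR, with adjusted p between 0.000410 and 0.00746, where 20.7% of genes were called higher with hearts 3 and 4 alone and 19.0% with hearts 1 and 2 alone. The difference between these pairs of hearts was not tested.

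Likeness to other genes was measured by the root mean square difference in log2 CPM, centred on each gene's mean, over the 8 libraries and 12658 genes of at least 1 CPM. Likeness here includes the difference between the groups that called genes share. The gene nearest to Atf4 was ENSRNOG00000001148, at a difference of 0.0355, with 815, 750, 612 and 732 CPM in hypoxic hearts 1 to 4, against 537, 529, 558 and 550 CPM in normoxic hearts 1 to 4. The gene nearest to Hspa5 was ENSRNOG00000003029, at 0.0751, with 306, 264, 337 and 278 CPM in hypoxic hearts 1 to 4, against 195, 178, 197 and 190 CPM in normoxic hearts 1 to 4. Within a difference of 0.1 lay 204 genes for Atf4, 4 for Hspa5 and 3 for Ddit3. The difference was not scaled by the spread of a gene, so a gene that varies little lies near more genes. Atf4 had the smallest log2 fold change of the 3, at 0.47. Its SD of log2 CPM in hypoxia was also the smallest, at 0.18 against 0.22 for Hspa5 and 0.32 for Ddit3.

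The 3 genes were not each other's nearest. Atf4 was the nearer of the other two to Hspa5, at 0.198, with 529 genes nearer still. It was also the nearer to Ddit3, at 0.259, with 692 genes nearer still. From Atf4, 1778 genes were nearer than Hspa5 and 3536 were nearer than Ddit3. Hspa5 and Ddit3 were farthest apart, at 0.315, with 3700 genes nearer to Hspa5 and 1557 nearer to Ddit3. The median difference over all genes was 0.391 from Hspa5, 0.343 from Atf4 and 0.503 from Ddit3.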

How the data were processed

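Heart RNA was taken up in Trizol and sequenced from NEBNext Ultra libraries, per the labels. The authors deposited raw read counts per Ensembl gene ID and, separately, FPKM values for each library. Count divided by FPKM and by library total gave 1 length per gene in 100% of values, within a relative tolerance of 0.001, so the deposited FPKM carry no normalization beyond length and total. The submitters' processing notes list HISAT2 2.1.0, Bowtie2 2.2.3, HTSeq 0.6.0, bcl2fastq and the build rn6. What each did, the annotation, strandedness and the handling of multiply matched reads are not given in the sources used, so reads of near-identical copies of a gene could not be separated.

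Library totals were 26229304 to 32160710 counts. Genes that passed filterByExpr (minimum count 10) were scaled by TMM and tested with edgeR 4.0.16 in R 4.3.3 (quasi-likelihood test, group as the only term), with Benjamini-Hochberg adjustment over 14214 genes. SE was computed from the test statistic, and log2 CPM used a prior count of 2. Alternatives used DESeq2 1.42.0, limma 3.58.1 and a lowess length correction of span 0.3. Counting error is 100 divided by the square root of the mean count and covers counting alone. Ratios were compared by exact permutation over 70 assignments (scipy 1.17.1). The procedure was run on simulated counts with the same dispersion for all genes and both groups and no trend with length. That simulation did not cover the wider spread in hypoxia or the length trend of these data. Nothing says how the animals were housed or batched.

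The members and lists were chosen with earlier results of these data known. The rule for named genes took the 3 members, listed genes of the pathway and the nearest gene to each member, with at most 2 IDs printed. The reference table matched 0 Ensembl IDs, so lists of chaperones, stress sensors, ATF4 and CHOP targets and cell type markers, fixed by symbol, were not analysed. The searches for CCAAT and CCACG alone were added after the promoters were seen, as was the near match upstream of Ddit3. The length correction of the ratios was chosen after seeing the data.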

Additional observations from a re-analysis of the deposited data

How the results depend on the processing

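The alternatives reused the same 8 libraries. For each gene every hypoxic heart lay above every normoxic one in CPM and in FPKM. Leaving hearts out could therefore hardly reverse a direction. Over 23 alternatives for each gene, all 69 log2 fold changes kept their direction and 67 kept their call. Those that missed the threshold were Hspa5 at 0.39 (limma adjusted p = 0.0795) and Atf4 at 0.28 (limma adjusted p = 0.0596), on log2(FPKM + 1) without a filter, where 21301 genes were tested. With each heart left out in turn, the log2 fold change was 0.51 to 0.65 for Hspa5, 0.39 to 0.54 for Atf4 and 0.67 to 0.94 for Ddit3, with edgeR adjusted p at most 0.0225. Over the same 8 fits, 3315 to 4758 genes were called, and over all 23 alternatives 3315 to 5982. A fit with a replicate block gave log2 fold changes of 0.57, 0.46 and 0.82 for Hspa5, Atf4 and Ddit3 (edgeR adjusted p = 0.0129, 0.0197 and 0.00811), and 3841 genes were called. Libraries with the same number correlated at −0.0847 to 0.0187 in their deviations from the group means. A small effect shared by such hearts could not be seen this way. Without 1 heart, the log2 difference of a ratio was −0.03 to 0.20 for Hspa5 to Atf4, 0.22 to 0.42 for Ddit3 to Atf4 and −0.42 to −0.06 for Hspa5 to Ddit3, and no p was computed. Left out in pairs, hypoxic hearts 3 and 4 gave 0.18 for Ddit3 to Atf4, and hearts 1 and 2 gave 0.54. Pathway lists had no alternatives run, as they could not be matched to IDs. Counting error was far below the spread between hypoxic hearts, but nearer to it between normoxic hearts, at 4.03% against 5.46% for Ddit3 and 1.75% against 2.86% for Atf4.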
